A study of Arabidopsis thaliana with 4 samples.

Results

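MicroRNA (MIR) genes of Arabidopsis thaliana were examined in the ATAC-seq peak lists of flowers of the T-DNA mutant mbd9-3 and of wild type (WT). All 326 genes of chromosomes 1 to 5 whose symbol is MIR followed by a number were taken as members, out of 37899 annotated genes including pseudogenes. A member was counted as called in a library when the library's list held a row with its summit between 1 kb upstream of the gene start and the gene end. This rule reads gene symbols and positions, not measured values.

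The data comprise 2 libraries of mbd9-3 and 2 libraries of WT, all from flowers (inflorescences in the study's methods) of Columbia-0 plants that had grown for 4 weeks in soil under long days. The mutant carries a T-DNA insertion in MBD9, which encodes a protein of the methyl-CpG-binding family found with SWR1, a remodeller that deposits the histone variant H2A.Z. ATAC-seq uses the transposase Tn5, which inserts sequencing adaptors into DNA that is not wrapped in nucleosomes. The study calls its ATAC-seq replicates biological, and the labels do not say how many plants each holds, so p-values measure the spread between these samples only. Because whole flowers were used, a site open in more cells and a site more open in each cell cannot be told apart.

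The lists held 45208 and 37609 rows in mbd9-3 and 44004 and 43962 rows in WT. The lowest background, in tags, among rows drawn at random from each list was 1.72 and 1.79 in mbd9-3 and 1.75 and 2.15 in WT. It was highest in WT replicate 2. Peak lists hold no transcript levels. Of 5 floral organ identity genes looked up as a check of the labelled tissue, AP1, AG and SEP3 had a summit in all 4 libraries, AP3 had one in 1 mbd9-3 library and 1 WT library, and PI had one in 1 mbd9-3 library. MBD9 itself had summits of at most 3.93-fold and 2.46-fold in mbd9-3 and 3.64-fold and 2.54-fold in WT, and peak lists cannot check the insertion.

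MIR genes are transcribed by RNA polymerase II from promoters of their own or, for some, within a host gene. The primary transcript folds into a hairpin that DICER-LIKE1 (DCL1) cuts into a short miRNA, and ARGONAUTE1 (AGO1) uses the miRNA to cut or repress matching mRNAs. Families shared by distant land plants mostly target transcription factors, nutrient regulators or the silencing machinery itself, whereas young families found only in Arabidopsis and its relatives often have few or no known targets. The annotated MIR gene is close to the hairpin, not to the whole primary transcript, which matters for where an open promoter is looked for.

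The miRNAs that the results turn on are printed here in 3 sets. They were read from the TAIR10.1 genome of RefSeq at the annotated mature positions, 5′ to 3′, with the seed (bases 2 to 8) in capitals. The first set holds miRNAs whose genes were called in every library and act on the silencing pathway or in copper economy.
miR162a-3p: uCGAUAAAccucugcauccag
miR168a-5p: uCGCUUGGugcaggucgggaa
miR403-3p: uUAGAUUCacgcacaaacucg
miR397a: uCAUUGAGugcagcguugaug
miR398b-3p: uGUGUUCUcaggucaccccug
miR408-3p: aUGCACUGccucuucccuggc
The second set holds miRNAs of phosphate and sulfate starvation, whose genes were nearly all without a summit.
miR399b: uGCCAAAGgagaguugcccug
miR399f: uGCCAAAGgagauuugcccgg
miR395a: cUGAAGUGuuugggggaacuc
The third set holds miRNAs of development, among them families with a gene called in a single genotype.
miR156a-5p: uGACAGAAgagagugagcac
miR157a-5p: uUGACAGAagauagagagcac
miR172a: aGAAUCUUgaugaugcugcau
miR164b-5p: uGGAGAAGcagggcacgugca
miR166a-3p: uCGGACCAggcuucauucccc
miR169c: cAGCCAAGgaugacuugccgg
miR319b: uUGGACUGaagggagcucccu
miR396a-5p: uUCCACAGcuuucuugaacug

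Genes that share a seed did not always share their state. The miR164 seed is the same in MIR164a, MIR164b and MIR164c, and the miR172 seed is the same in all 5 MIR172 genes, yet these genes differed in presence. In other families the genes were alike, as in MIR162 and MIR168, whose members were all called in all 4 libraries. miR165a-3p and miR166a-3p also share the seed CGGACCA. miR157a, miR157b and miR157c carry the run of bases of miR156 shifted by 1 position, and miR157d has the miR156 seed itself.

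Summits were found at 137 (42.0%) and 119 (36.5%) of the 326 MIR genes in mbd9-3 and at 131 (40.2%) and 127 (39.0%) in WT. The mean was 128.0 ± 12.7 genes in mbd9-3 and 129.0 ± 2.8 genes in WT (SD, n = 2 each), so the genotypes differed by less than the spread between the mbd9-3 libraries, and with 2 libraries against 2 an exact permutation test cannot go below p = 0.333. In windows of the same length, from 1 kb upstream to 144 bp inside the gene (the median length of a MIR gene), 57.2% and 57.6% of 27444 protein-coding genes had a summit in mbd9-3 and 58.6% and 63.3% in WT. MIR genes were therefore called less often than protein-coding genes in each of the 4 libraries. These counts use every listed row. With only rows of −log10 q of at least 1.3, summits remained at 120 and 114 MIR genes in mbd9-3 and at 112 and 122 in WT. The order of the libraries thus depends on the weak rows.

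A total of 91 MIR genes (27.9%) had a summit in all 4 libraries, beside 38.8% of all annotated genes and 45.4% of protein-coding genes in equal windows. No library held a summit at 144 MIR genes (44.2%), compared with 34.6% of all annotated genes. The remaining 91 members were called in 1, 2 or 3 libraries. Of these, 46 were called in a single library: 17 in mbd9-3 replicate 1, 6 in mbd9-3 replicate 2, 14 in WT replicate 1 and 9 in WT replicate 2.

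The strength of a row is its fold enrichment, the pileup at the summit over the background of the same library. Because each list was called separately, strength was expressed as the percentile of the row within its own list, with 100 the highest. The best row of a called MIR gene had a median percentile of 67.8 and 68.8 in mbd9-3 and 61.2 and 66.4 in WT. For protein-coding genes in equal windows the medians were 70.4 and 65.8 in mbd9-3 and 69.4 and 69.6 in WT. The MIR median was the higher one in mbd9-3 replicate 2 and the lower one in the other libraries, by most in WT replicate 1. The median fold enrichment was 4.42 and 5.09 in mbd9-3 and 4.14 and 5.11 in WT, from a median pileup of 12 and 16 tags in mbd9-3 and 12 and 18 tags in WT.

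**Figure D1:**
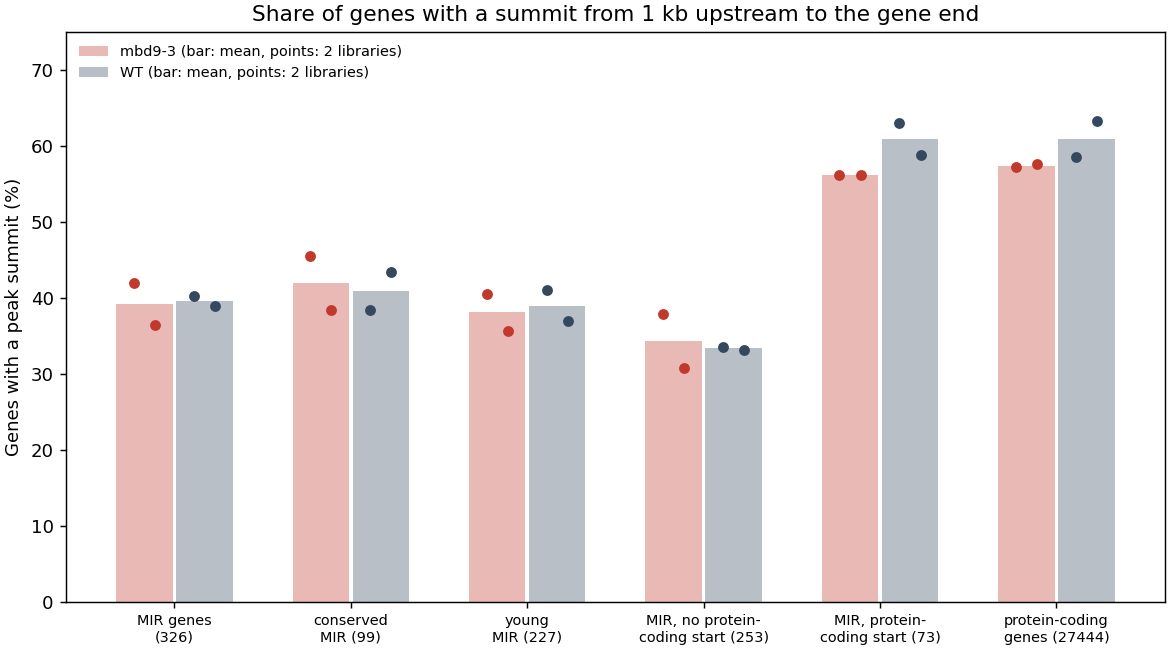
Share of genes with a peak summit from 1 kb upstream to the gene end, in percent, for MIR genes and their subsets and, in windows of equal length, for protein-coding genes. Bars are means and points are the 2 libraries of mbd9-3 (left) and WT (right). MIR genes sit between 36.5% and 42.0%, those with a protein-coding start in the window between 56.2% and 63.0%, and protein-coding genes between 57.2% and 63.3%.

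Part of the MIR signal lay in windows shared with another promoter. The window of 73 MIR genes held the start of a protein-coding gene. In these, 41 and 41 genes had a summit in mbd9-3 and 46 and 43 in WT, or 56.2% in each mbd9-3 library and 63.0% and 58.9% in WT, and 34 (46.6%) were called in all 4 libraries. Of the 253 MIR genes with no such start, 96 (37.9%) and 78 (30.8%) had a summit in mbd9-3 and 85 (33.6%) and 84 (33.2%) in WT, and 57 (22.5%) were called in all 4. The share was lower without a protein-coding start in every library.

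Conserved and young families were then compared. The classes come from a family table written by hand from background knowledge, in which every family not listed was counted as young, so young here means not listed as conserved. The 99 conserved members belong to 29 families and the 227 young ones to 186. Among conserved members, 45 and 38 had a summit in mbd9-3 and 38 and 43 in WT, and among young members 92 and 81 in mbd9-3 and 93 and 84 in WT. These are 45.5% and 38.4% of conserved members in mbd9-3 and 38.4% and 43.4% in WT, and 40.5% and 35.7% of young members in mbd9-3 and 41.0% and 37.0% in WT. The mean difference over the 4 libraries was 2.9 percentage points, and in WT replicate 1 the young share was the higher one, so the direction was not the same in every library. In all 4 libraries, 31 of 99 conserved members (31.3%) and 60 of 227 young members (26.4%) were called.

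The position of the 2 classes in the genome differed. Of the conserved members 91 were intergenic, 3 intronic and 5 overlapped an exon of another gene, whereas 146 young members were intergenic, 33 intronic and 48 exonic. A protein-coding start lay in the window of 10 conserved and 63 young members. Where no such start lay in the window, 24 of 89 conserved members (27.0%) and 33 of 164 young members (20.1%) were called in all 4 libraries. When each family was counted once, 75.9% and 72.4% of conserved families had a called member in mbd9-3 and 72.4% and 69.0% in WT, compared with 44.1% and 39.8% of young families in mbd9-3 and 44.6% and 41.9% in WT. Conserved families hold more genes each, so a family with any called member is more likely among them by construction.

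Over all called members, the strength of the age classes had no fixed order. The median percentile of conserved members was 63.8 and 64.2 in mbd9-3 and 67.6 and 61.5 in WT, and that of young members 67.8 and 71.6 in mbd9-3 and 58.6 and 66.7 in WT, so young members were the higher in 3 libraries and the lower in WT replicate 1. In windows free of protein-coding starts, conserved members had 63.8 and 58.5 in mbd9-3 and 67.6 and 56.8 in WT, and young members 54.4 and 71.6 in mbd9-3 and 53.3 and 62.7 in WT, so the order differed between the replicates of each genotype. Among the 91 members called everywhere, the young ones had the higher percentiles. The mean percentile over the 4 libraries had a median of 82.3 over the 60 young members and 67.2 over the 31 conserved members. Without a protein-coding start in the window these medians were 82.4 for 33 young members and 67.5 for 24 conserved members. The classes overlapped widely, with a range of 29.6 to 95.2 in conserved members and a lowest value of 11.7 in young members.

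The 10 members with the highest mean percentile were all young. MIR5642a led, with a fold enrichment of 33.0 and 31.6 in mbd9-3 and 28.2 and 29.5 in WT, and its row was ranked 10 and 10 in the mbd9-3 lists and 18 and 12 in the WT lists, rank 1 being the highest fold enrichment. MIR5642b followed, with 15.8 and 20.8 in mbd9-3 and 13.5 and 15.6 in WT. The windows of both lie in repeated sequence, since only 21.1% and 26.5% of their 50-base words occur once in the genome. These 2 members were the only called ones among 14 young members in which fewer than 50% of the words were unique, and no conserved member fell below that level. The part of repeats in their high ranks was not tested.

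Next in order were MIR5997, MIR5019 and MIR405a. MIR5997 had a fold enrichment of 15.6 and 11.8 in mbd9-3 and 12.4 and 14.3 in WT, with a summit 56 to 70 bp upstream of the hairpin in every library. MIR5019 had 14.6 and 12.3 in mbd9-3 and 10.9 and 13.7 in WT, but its summit lay only 9 to 14 bp from the start of a protein-coding gene. MIR405a had 12.4 and 10.7 in mbd9-3 and 13.2 and 12.2 in WT. In each of these 3 genes the values of the genotypes overlapped.

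The other 5 of the first 10 were MIR5634, MIR776, MIR404, MIR163 and MIR4245, with mean percentiles between 95.9 and 97.4. MIR163, whose miRNA targets methyltransferase genes, had a fold enrichment of 10.2 and 12.7 in mbd9-3 and 12.6 and 9.18 in WT. The window of MIR163 was free of protein-coding starts, its summit lay 366 to 383 bp upstream of the hairpin, and its genotypes overlapped. MIR5634, MIR776 and MIR4245 shared their windows with protein-coding starts, and the window of MIR404 held none.

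MIR396a was the strongest conserved member. It encodes a miRNA against the GRF growth regulators, and its fold enrichment was 12.1 and 10.2 in mbd9-3 and 10.3 and 8.83 in WT, at percentiles of 98.0 and 96.1 in mbd9-3 and 95.8 and 91.0 in WT. Its summit lay between 104 and 113 bp upstream of the hairpin in all 4 libraries and more than 3 kb from any protein-coding start. MIR396b was called in all 4 libraries as well, at percentiles of 71.4 and 57.4 in mbd9-3 and 67.6 and 65.0 in WT. The best summit of MIR396b lay 629 and 640 bp upstream in mbd9-3 and 194 and 141 bp upstream in WT. These percentiles thus belong to different places in the 2 genotypes. The promoter of MIR396a, from 250 bases before to 50 after the annotated start (chr2:4142424-4142723, minus strand, TAIR10.1), is shown because the summits of all 4 libraries fall in it, with the only TATAAA in capitals, starting 125 bases before the hairpin.
MIR396a promoter: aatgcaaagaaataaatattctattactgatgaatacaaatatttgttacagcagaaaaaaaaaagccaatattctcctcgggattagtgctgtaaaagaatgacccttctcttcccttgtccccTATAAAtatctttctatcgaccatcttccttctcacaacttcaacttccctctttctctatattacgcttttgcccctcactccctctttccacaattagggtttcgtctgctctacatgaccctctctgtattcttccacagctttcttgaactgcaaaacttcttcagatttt

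The letters TATAAA, read on both strands, occur in 48.8% of the promoters of all 37899 annotated genes, in 57.6% of those of conserved MIR genes and in 48.5% of those of young MIR genes. They occur in 56.0% of the promoters of MIR genes called in all 4 libraries and in 54.9% of those called in none. Other conserved members near the top were MIR858a, against MYB genes, at a mean percentile of 92.7, MIR397a at 92.2, MIR156h at 89.4, MIR160a at 88.5 and MIR166a at 88.1.

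The genes whose miRNAs act on the silencing pathway were called without exception. MIR162a and MIR162b, against DCL1, MIR168a and MIR168b, against AGO1, and MIR403, against AGO2, had a summit in every library. These 5 of 5 genes, from 3 families, stand beside 27.9% of MIR genes and 38.8% of all annotated genes. The role groups were chosen with earlier results of these data known, so the count is a description only. MIR168b had a fold enrichment of 7.69 and 7.02 in mbd9-3 and 6.70 and 7.39 in WT. MIR168a had 7.66 and 6.23 in mbd9-3 and 6.60 and 5.94 in WT. For both MIR168 genes the genotypes overlapped, and the summit lay 196 to 264 bp upstream of the hairpin.

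MIR403 had a fold enrichment of 4.42 and 5.20 in mbd9-3 and 5.06 and 6.90 in WT. MIR162a had 4.05 and 3.91 in mbd9-3 and 4.14 and 5.14 in WT, but its best summit lay 15 and 3 bp in mbd9-3 and 23 and 7 bp in WT from the start of a protein-coding gene, so 4 of the 5 genes were called with no such start in the window. MIR162b had 3.23 and 4.06 in mbd9-3 and 4.60 and 6.11 in WT, and it was the only gene of the pathway besides MIR162a in which both mbd9-3 values lay below both WT values. On percentiles MIR162b kept this order, with 38.7 and 51.1 in mbd9-3 and 67.6 and 76.5 in WT, whereas MIR162a did not, with 62.0 and 46.5 in mbd9-3 and 61.2 and 66.8 in WT.

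Nutrient miRNAs split by nutrient. The copper miRNAs repress copper proteins when the metal is scarce, and their 7 genes, MIR397a, MIR397b, MIR398a, MIR398b, MIR398c, MIR408 and MIR857, were called in every library, beside 27.9% of MIR genes and 38.8% of all annotated genes. The phosphate miRNAs are known for induction by phosphate starvation, and a link between this and their summits was not tested. Of MIR399a to MIR399f, MIR827, MIR2111a and MIR2111b, 8 of 9 genes had no summit in any library. This stands beside 44.2% of MIR genes and 34.6% of all annotated genes. The exception was MIR2111a, with a summit of 2.94-fold in mbd9-3 replicate 1. Of the sulfate miRNA genes MIR395a to MIR395f, 5 of 6 had no summit, and MIR395f had 1 of 2.21-fold in mbd9-3 replicate 1.

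Within the copper group MIR397a was the strongest, with a fold enrichment of 11.9 and 9.62 in mbd9-3 and 9.46 and 6.85 in WT. MIR408, whose miRNA targets plantacyanin and laccases, was the most even, with 5.93 and 6.36 in mbd9-3 and 5.93 and 6.81 in WT and percentiles of 82.6 and 81.5 in mbd9-3 and 80.5 and 81.4 in WT. MIR398a had 5.27 and 6.74 in mbd9-3 and 6.95 and 7.14 in WT. These miR398 genes act on copper/zinc superoxide dismutases. MIR398b had 3.04 and 4.34 in mbd9-3 and 4.50 and 3.62 in WT, and MIR398c had 4.01 and 4.93 in mbd9-3 and 4.14 and 5.98 in WT. Protein-coding starts lay in the windows of MIR398a and MIR398c, and the best summit of MIR398c was 289 and 702 bp from one in mbd9-3 and 93 and 85 bp in WT. MIR397b and MIR857, both against laccases, lie side by side and shared 1 row, of 5.15 and 6.10 in mbd9-3 and 6.19 and 4.76 in WT, so they are not independent.

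The promoters of these groups were searched for letters known to bind their regulators, the copper response core GTAC, recognised by SPL7, and the phosphate starvation element GNATATNC, recognised by PHR1, both strands being read. At least 2 GTAC occurred in 5 of the 7 copper genes and in 10.3% of the promoters of all annotated genes. GNATATNC occurred in 5 of the 6 MIR399 genes and in MIR827, and in 6.13% of all promoters. A match is a string of letters and was not tested as a site.

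The following promoters of 300 bases show these letters in 2 copper genes that were called everywhere and in 2 phosphate genes that were called nowhere, with GTAC, GNATATNC and TATAAA matches on either strand in capitals. They lie at chr2:19319564-19319863, plus strand (MIR408), chr4:7878711-7879010, minus strand (MIR397b), chr2:14444747-14445046, plus strand (MIR399f) and chr3:22122887-22123186, minus strand (MIR827), in TAIR10.1.
MIR408 promoter: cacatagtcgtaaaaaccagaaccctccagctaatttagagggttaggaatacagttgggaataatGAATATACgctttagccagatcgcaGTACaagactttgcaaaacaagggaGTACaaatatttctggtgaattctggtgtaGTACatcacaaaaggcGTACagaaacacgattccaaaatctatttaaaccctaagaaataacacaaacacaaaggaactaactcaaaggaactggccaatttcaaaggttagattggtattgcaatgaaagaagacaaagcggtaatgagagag
MIR397b promoter: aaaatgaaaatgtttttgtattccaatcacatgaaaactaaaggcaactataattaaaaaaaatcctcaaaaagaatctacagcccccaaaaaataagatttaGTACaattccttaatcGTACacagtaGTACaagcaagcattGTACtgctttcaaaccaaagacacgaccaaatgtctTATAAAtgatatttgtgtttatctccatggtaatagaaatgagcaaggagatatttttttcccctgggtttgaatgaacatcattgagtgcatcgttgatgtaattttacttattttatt
MIR399f promoter: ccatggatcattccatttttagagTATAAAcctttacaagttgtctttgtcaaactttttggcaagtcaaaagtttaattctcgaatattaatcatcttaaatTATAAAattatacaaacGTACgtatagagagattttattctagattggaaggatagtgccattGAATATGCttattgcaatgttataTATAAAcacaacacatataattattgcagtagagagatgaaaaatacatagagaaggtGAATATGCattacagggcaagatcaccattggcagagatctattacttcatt
MIR827 promoter: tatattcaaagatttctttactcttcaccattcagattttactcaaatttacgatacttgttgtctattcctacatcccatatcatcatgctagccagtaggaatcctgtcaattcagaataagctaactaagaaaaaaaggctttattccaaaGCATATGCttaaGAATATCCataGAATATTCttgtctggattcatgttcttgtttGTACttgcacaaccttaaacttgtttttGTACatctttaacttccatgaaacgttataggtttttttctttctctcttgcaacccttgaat

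MIR408 holds 4 GTAC, between 159 and 88 bases before the hairpin, and its best row covered 2 of them in each of the 4 libraries. MIR408 also holds 1 GNATATNC. MIR397b holds 4 GTAC, between 147 and 106 bases before the hairpin, of which its best row covered 3 and 4 in mbd9-3 and 2 and 4 in WT, with a summit 85 to 92 bp before the hairpin. MIR398b holds 5, of which its best row covered 3 and 5 in mbd9-3 and 3 and 0 in WT. In MIR397a and MIR398c the best row covered none of their 3, and the promoters of MIR398a and MIR857 hold none. The best row of MIR857 is that of MIR397b, so it covered the GTAC of the MIR397b promoter. The 7 genes were thus alike in being called and not in how many GTAC the row covered. In MIR399f GNATATNC starts 84 and 2 bases before the hairpin, and in MIR827 it starts 96, 84 and 73 bases before.

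**Figure D2:**
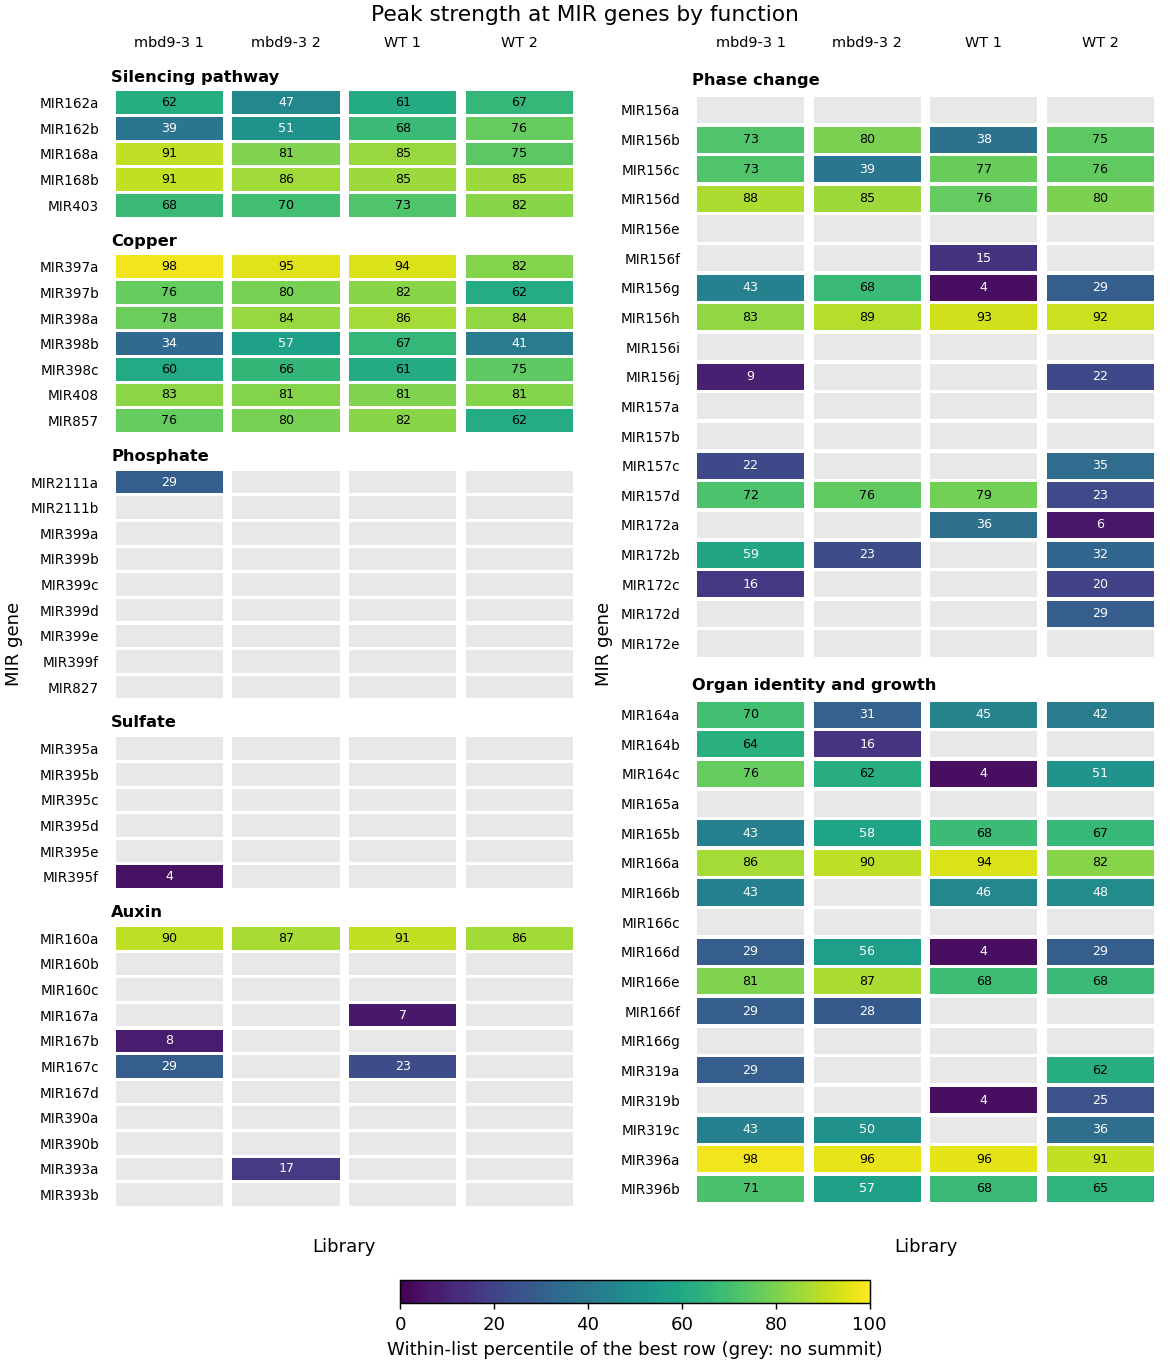
Within-list percentile of the best row at the MIR genes of 7 functional groups (rows) in the 2 mbd9-3 and 2 WT libraries (columns), with grey for no summit. The silencing and copper genes are filled in all 4 libraries, the phosphate and sulfate genes are nearly all grey, and the developmental families are mixed within families.

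The developmental families were mixed. Of their 68 genes, 30 and 25 had a summit in mbd9-3 and 25 and 30 in WT, 18 (26.5%) were called in all 4 libraries and 30 in none. The share called everywhere was close to that of all MIR genes, 27.9%.

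The miR156 family, which holds SPL transcription factors low and so keeps plants juvenile, had MIR156b, MIR156c, MIR156d, MIR156g and MIR156h called in all 4 libraries. MIR156a, MIR156e and MIR156i had no summit, MIR156f had 1 in WT replicate 1, and MIR156j had 1 in mbd9-3 replicate 1 and WT replicate 2. MIR156h was the strongest, with a fold enrichment of 6.10 and 7.65 in mbd9-3 and 8.78 and 9.20 in WT. Protein-coding starts lay in the windows of MIR156h, MIR156b and MIR156d, with the best summit 134 to 157 bp, 78 to 87 bp and 195 to 224 bp from the nearest one, in that order. MIR156d had 6.97 and 6.91 in mbd9-3 and 5.41 and 6.66 in WT. MIR156i and MIR156j are annotated on the opposite strand over exons of SPL4 and SPL9, themselves SPL genes. In the related miR157 family MIR157d was called everywhere, MIR157c in mbd9-3 replicate 1 and WT replicate 2, and MIR157a and MIR157b nowhere.

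The miR172 family acts later, against APETALA2-like genes, and promotes flowering and floral patterning. None of its 5 genes was called in all 4 libraries, beside 27.9% of MIR genes and 38.8% of all annotated genes. MIR172b had a summit of 3.91-fold and 3.09-fold in mbd9-3 and, in WT, of 3.27-fold in replicate 2 only. MIR172c had 2.58-fold in mbd9-3 replicate 1 and 2.86-fold in WT replicate 2, MIR172d had 3.18-fold in WT replicate 2, and MIR172e had no summit. MIR172a was called in both WT libraries only, with values given among the genes called in 1 genotype. WT replicate 2, where the lowest background among the sampled rows was highest, called 4 of the 5 genes.

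MIR164a and MIR164c, against the CUC boundary genes, were called in all 4 libraries and MIR164b in mbd9-3 only. Of the genes against class III HD-ZIP factors, which set adaxial identity, MIR165b, MIR166a, MIR166d and MIR166e were called in all 4 libraries, and MIR165a, MIR166c and MIR166g in none. MIR166b lacked a summit only in mbd9-3 replicate 2, and MIR166f was called in mbd9-3 only. MIR166a had a fold enrichment of 6.62 and 7.89 in mbd9-3 and 9.46 and 6.88 in WT. MIR166e had 5.70 and 7.22 in mbd9-3 and 4.69 and 5.27 in WT, so both mbd9-3 values lay above both WT values.

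The miR319 genes, against TCP factors of leaf and petal growth, were each called in part of the libraries. MIR319c lacked a summit only in WT replicate 1, MIR319a had 2.94-fold in mbd9-3 replicate 1 and 4.76-fold in WT replicate 2, and MIR319b was called in both WT libraries. Of the genes of auxin signalling, MIR160a, against repressing auxin response factors, was called everywhere at percentiles of 90.0 and 87.0 in mbd9-3 and 90.9 and 86.3 in WT. The MIR167 genes, against ARF6 and ARF8, had at most 2 libraries each: MIR167a in WT replicate 1, MIR167b in mbd9-3 replicate 1, MIR167c in both of these and MIR167d in none. In all, 6 of the 11 auxin genes (54.5%) had no summit, beside 44.2% of MIR genes and 34.6% of all annotated genes. Among the 6 were MIR160b, MIR160c, MIR390a, MIR390b and MIR393b.

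The 14 MIR169 genes, against NF-YA factors, were mostly uncalled. MIR169f and MIR169g were called in all 4 libraries and MIR169c in mbd9-3. The other 11 (78.6%) had no summit, beside 44.2% of MIR genes and 34.6% of all annotated genes. They included all 6 genes of the chromosome 3 cluster MIR169i to MIR169n. Among miRNAs against chromatin genes, MIR773a and MIR773b, against the DNA methyltransferase MET2, were called in all 4 libraries, MIR778, against the histone methyltransferases SUVH5 and SUVH6, in WT only, and MIR823, against the DNA methyltransferase CMT3, in mbd9-3 replicate 1 and both WT libraries. Of the miRNAs that trigger secondary siRNAs, MIR828 was called everywhere and MIR173 lacked a summit only in mbd9-3 replicate 1.

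The mutant was compared with WT by presence first. Of the 326 MIR genes, 6 (1.84%) had a summit in both mbd9-3 libraries and neither WT library, beside 0.726% of all annotated genes in equal windows, and 5 (1.53%) had one in both WT libraries and neither mbd9-3 library, beside 1.68% of all annotated genes. The libraries numbered 1 alone shared 9 MIR genes and the libraries numbered 2 alone shared 3. The remaining pairing set apart 6 genes in mbd9-3 replicate 1 with WT replicate 2 and 2 genes in mbd9-3 replicate 2 with WT replicate 1. Pairs of libraries of different genotypes thus also shared MIR genes of their own. The shares over all annotated genes were not computed for these mixed pairs, so their counts have no background.

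The 6 genes called in mbd9-3 only were MIR164b, MIR166f, MIR169c, MIR4228, MIR426 and MIR781b. MIR164b had a fold enrichment of 4.11 and 2.85, with a summit 60 bp inside the hairpin gene and 45 bp upstream of it. MIR169c had 3.31 and 4.39, with summits 774 and 770 bp upstream. MIR4228 had 2.94 and 4.86, MIR426 3.68 and 3.75, and MIR781b 2.24 and 2.20. The pair of summits agreed to within 10 bp at MIR169c and MIR4228 and lay over 500 bp apart at MIR426.

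MIR166f had 2.94 and 3.23 in mbd9-3, but its WT summits lay only 10 and 55 bp outside the window, and its mbd9-3 summits were in different places, 80 bp inside the gene and 998 bp upstream. A row of WT replicate 1 also reached into the window of MIR164b, with its summit 73 bp outside. At MIR781b, MIR169c, MIR426 and MIR4228 no row of WT overlapped the window.

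The 5 genes called in WT only were MIR172a, MIR319b, MIR5026, MIR778 and MIR856. MIR172a had a fold enrichment of 3.20 and 2.34 in WT, with summits 841 and 804 bp upstream of the hairpin, and the nearest summits of mbd9-3 were 1622 and 1090 bp outside the window. MIR319b had 2.18 and 3.06 in WT, with the nearest mbd9-3 summits 743 and 744 bp outside. MIR5026 had 4.37 and 3.49, MIR778 2.91 and 2.54, and MIR856 2.85 and 2.22 in WT. No row of mbd9-3 overlapped any of these 5 windows.

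The fold enrichments of the 11 genes lay between 2.18 and 4.86, and the highest percentile among them was 65.4, in mbd9-3 replicate 2 at MIR4228. The lowest fold enrichment of any called MIR gene was 2.13 and 2.16 in mbd9-3 and 2.11 and 2.22 in WT. Close to these values stood MIR781b in both mbd9-3 libraries, MIR319b in WT replicate 1 and MIR856 in WT replicate 2. MIR4228, MIR5026 and MIR164b each had a percentile above 60 in 1 library and a lower value in the other library of that genotype.

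**Figure D3:**
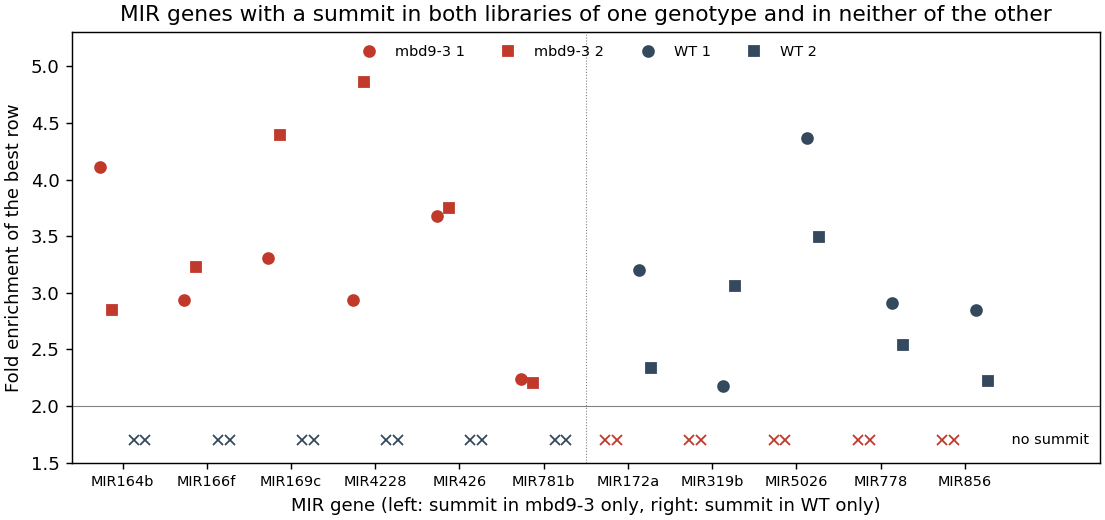
Fold enrichment of the best row (vertical axis) at the 11 MIR genes with a summit in both libraries of 1 genotype and neither of the other (horizontal axis), with circles and squares for replicates 1 and 2, red for mbd9-3 and dark blue for WT, and crosses for no summit. All points lie between 2.18 and 4.86.

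Strength was compared at the 91 MIR genes called in every library. Both mbd9-3 percentiles lay above both WT percentiles at 22 of them (24.2%) and below both at 14 (15.4%). Among the 18740 annotated genes called in every library these shares were 12.4% and 22.0%. Those genes were taken in their own windows, up to the gene end, and not in windows of equal length. The part of window length in this contrast was not tested. The genotype means of a MIR gene differed by a median of 5.9 percentile points. Single replicates differed by a median of 6.7 points in mbd9-3 and 4.9 points in WT. A mean of 2 libraries varies less than a single library. These medians are therefore unlike measures and do not weigh genotype against replicate spread.

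The normal scores of the within-list ranks were tested with limma over the same 18740 genes, in their own windows. No gene passed an adjusted p of 0.05, so the percentage called was 0 overall and 0 of the 91 MIR genes were called. At an unadjusted p below 0.05 stood 1008 genes (5.38%) and 9 MIR genes. The median difference, mbd9-3 minus WT in normal scores, was 0.03 over the MIR genes and -0.08 over all genes, and 49 MIR genes (53.8%) were higher in mbd9-3, beside 40.7% of all genes. On the log2 scale of fold enrichment the MIR median was -0.02, beside -0.12 for all genes, and 41 MIR genes (45.1%) were higher in mbd9-3. The MIR median thus changed sign with the scale, as the median of all genes also moved down, and it stood above that of all genes on both scales.

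The 4 MIR genes with the smallest p among those higher in mbd9-3 were MIR447b, MIR5644, MIR156g and MIR828. On percentiles, MIR447b had 47.8 and 41.9 in mbd9-3 and 0.35 and 13.2 in WT, a difference of 1.78 ± 0.50 (SE) in normal scores with a limma adjusted p of 0.90. Its best summit lay 729 and 737 bp upstream in mbd9-3 and 347 and 386 bp upstream in WT, so the summits compared were in different places. MIR5644 had 75.2 and 75.3 in mbd9-3 and 42.7 and 34.5 in WT, a difference of 0.97 ± 0.29. MIR156g had 43.4 and 67.7 in mbd9-3 and 3.86 and 29.4 in WT, with an unadjusted p of 0.022 in the limma fit. MIR828, against TAS4 and MYB genes of anthocyanin synthesis, had 63.8 and 57.1 in mbd9-3 and 35.5 and 26.8 in WT, a difference of 0.76 ± 0.30.

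The 4 among those lower in mbd9-3 were MIR847, MIR777, MIR5634 and MIR162b. MIR847 had percentiles of 20.6 and 1.80 in mbd9-3 and 32.1 and 55.8 in WT, a difference of -1.30 ± 0.46. MIR777 had 81.2 and 88.7 in mbd9-3 and 96.5 and 97.4 in WT, a difference of -0.83 ± 0.30. MIR5634 had 94.7 and 96.5 in mbd9-3 and 99.2 and 99.4 in WT, a difference of -0.76 ± 0.29, and MIR162b a difference of -0.72 ± 0.31. Protein-coding starts lay in the windows of MIR847, MIR777 and MIR5634. None of these 8 genes had overlapping groups, and none passed the test across all genes, with limma adjusted p-values from 0.90 to 0.918.

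**Figure D4:**
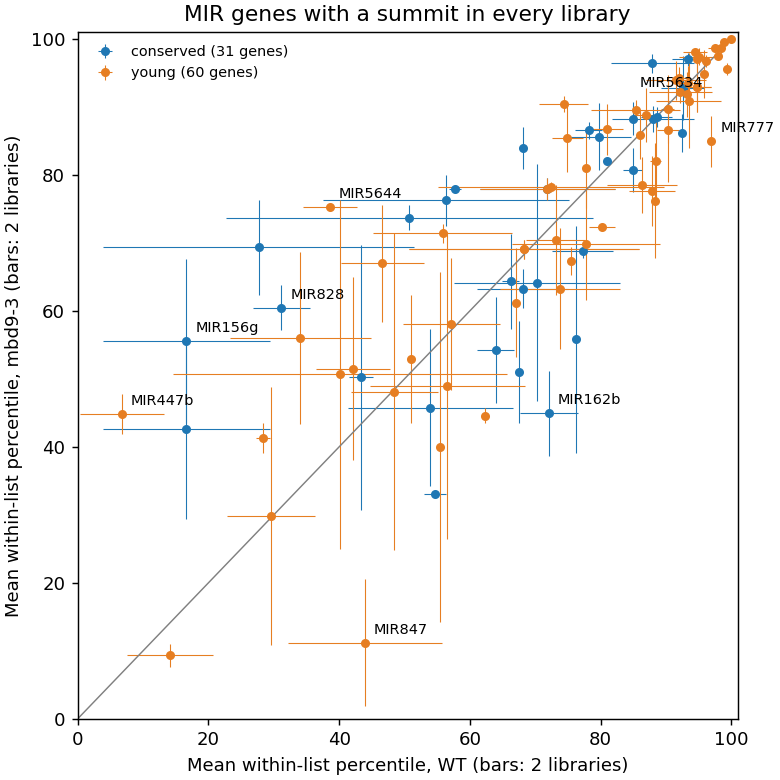
Mean within-list percentile in mbd9-3 (vertical axis) against WT (horizontal axis) of the 91 MIR genes with a summit in every library, with bars that span the 2 libraries of each genotype and the grey line at equality. The 31 conserved and 60 young members scatter on both sides of the line, and the 8 named genes are those with the smallest limma p in each direction.

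The position of summits relative to the annotated start differed from that at protein-coding genes, but the starts are unlike. The annotated start of a MIR gene is close to the hairpin, not to the start of the primary transcript. In 19 MIR genes with a noted primary transcript, the hairpin gene began a median of 241 bp downstream of the primary start. The part of this in the contrast was not tested. At MIR genes, 6.8% and 5.6% of the upstream summits in mbd9-3 and 7.7% and 5.7% in WT lay in the last 100 bp before the annotated start. At protein-coding genes these shares were 24.8% and 28.4% in mbd9-3 and 25.9% and 27.7% in WT. The MIR summits instead were most frequent between 400 and 100 bp upstream of the hairpin, and the 400 bp before the hairpin held 48.1% and 50.6% of them in mbd9-3 and 52.1% and 46.0% in WT. The shares were alike in conserved members, with 6.8% and 5.9% in mbd9-3 and 5.5% and 4.8% in WT in the last 100 bp, and in young members, with 6.8% and 5.5% in mbd9-3 and 8.8% and 6.2% in WT.

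**Figure D5:**
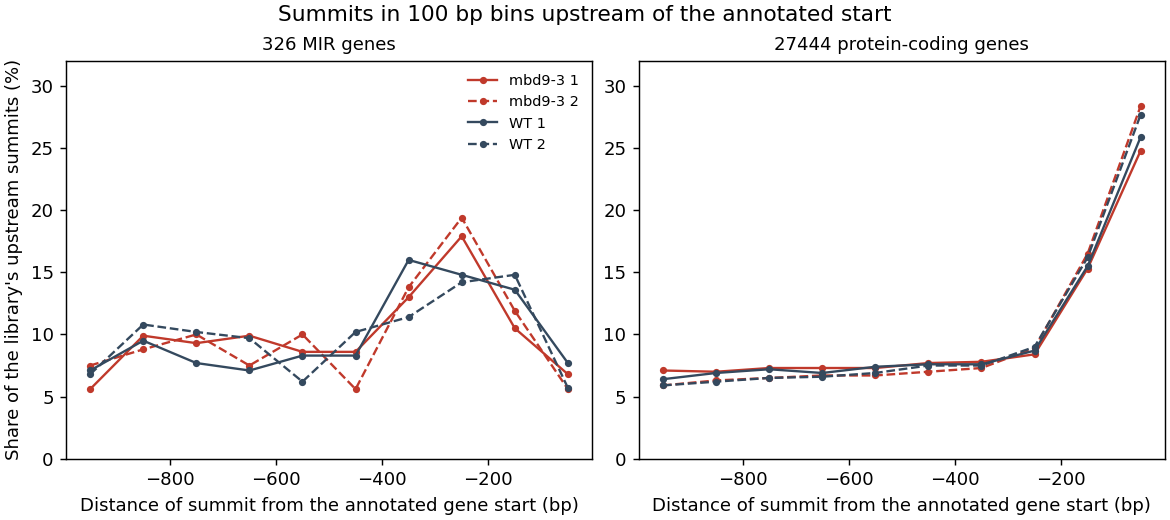
Share of each library's upstream summits, in percent, per 100 bp of distance from the annotated start (0 at the right) for 326 MIR genes and 27444 protein-coding genes, with red for mbd9-3, dark blue for WT, full lines for replicate 1 and dashed lines for replicate 2. The MIR lines are highest between 400 and 100 bp before the start and fall to between 5.6% and 7.7% in the last bin, where the protein-coding lines reach 24.8% to 28.4%. For MIR genes the annotated start is close to the hairpin and not to the start of the primary transcript.

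The best summit was reproducible in place. At the 91 MIR genes called everywhere its position ranged over a median of 34 bp across the 4 libraries, with a range of at most 50 bp at 56 genes and of over 300 bp at 7.

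For 19 MIR genes, 18 of them conserved, the annotation notes give the ends of the primary transcript on the gene's own chromosome and strand. The hairpin gene began 51 to 615 bp downstream of the primary start, with a median of 241 bp. A summit from 500 bp upstream to 200 bp downstream of the primary start was found at 8 and 6 of these genes in mbd9-3 and at 10 and 9 in WT, and at 5 in all 4 libraries: MIR156c, MIR158a, MIR159a, MIR160a and MIR166a. In MIR166a the nearest summits lay 110 and 105 bp upstream of the primary start in mbd9-3, and 14 bp downstream and 96 bp upstream in WT. In MIR156c they lay 168 and 158 bp upstream in mbd9-3 and 183 and 187 bp upstream in WT.

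At 6 of the 19 genes no library had a summit at the primary start: MIR156a, MIR160b, MIR169f, MIR171b, MIR171c and MIR172e. MIR169f was called in all 4 libraries from the hairpin, but its nearest summits lay 731 and 702 bp upstream of the primary start in mbd9-3 and 703 and 681 bp upstream in WT. These summits were 9 and 20 bp in mbd9-3 and 19 and 41 bp in WT from the start of a protein-coding gene. At MIR172a the primary start lies 596 bp upstream of the hairpin, and the WT-only summits lay 245 and 208 bp upstream of it. At MIR319b the WT summits lay 500 and 532 bp upstream of the primary start.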

How the data were processed

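Flowers of mbd9-3 and WT were profiled by ATAC-seq, 2 libraries each, with groups and replicate numbers taken from the titles. The authors trimmed adaptors with Trim Galore and used Bowtie against TAIR10, so that only reads placed once were kept (the submitters' processing notes name Bowtie2). SAMtools served to drop duplicates, and reads of both organelles were discarded. The peak caller, its options and any Tn5 shift are not given in the sources used here. The deposited lists are named as called per library with no control. Read totals were not used, so the depth is known only relatively, from the lowest background tags in a random sample of rows.

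The deposited fold enrichment is a ratio of pileup to background. The deposited −log10 p-value and −log10 q-value are per library, and the deposited score is about 10 times the −log10 p-value. Rows with no summit position (86 and 45 in mbd9-3, 81 and 49 in WT) were placed at the middle of their interval. Pileup was solved from fold and p (tolerance 0.0001).

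Genes, mature miRNAs and sequences were those of RefSeq TAIR10.1, and no deposited row ran past the end of a chromosome; coordinates are 1-based. Each gene took its highest row by fold. limma 3.58.1 (R 4.3.3; lmFit, eBayes, Benjamini-Hochberg, 0.05) was run on normal scores of within-list ranks at genes called in all 4 libraries, and was tested on simulated data. Counts and ranks came from pandas 2.3.3 with numpy 2.4.6, run in Python 3.11.15; scipy 1.17.1 gave the normal scores and matplotlib 3.10.9 drew the figures. The members, families, role groups and lists were chosen with earlier results of these data known. Named genes are the 10 strongest members, the 5 strongest young ones, genes called in 1 genotype, 4 per direction by limma p, the strongest of each role group, all members of 9 developmental and nutrient families, and MBD9; other genes named by their group were chosen after their values were seen. Alternatives were −log10 q of at least 1.3 or 5, equal numbers of top rows, windows of 500 bp or 2 kb, rows without summit left out, windows free of protein-coding starts, other age classes, other rank measures, each library left out in turn, and a fit with the replicate number as a block; equal-length windows of the comparison genes and a minimum share of unique 50-base words were chosen after seeing the data. 1 primary transcript whose note names another chromosome was left out.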

Additional observations from a re-analysis of the deposited data

How the results depend on the processing

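With rows of −log10 q of at least 1.3, 84 MIR genes were called in every library, 6 in mbd9-3 only and 5 in WT only. Some calls in every library rest on weak rows. In WT replicate 1 the best rows of MIR164c, MIR166d, MIR156g and MIR447b had a −log10 q of 0.71. With rows of −log10 q of at least 5, MIR genes called in every library fell to 51, those called in mbd9-3 only to 2 and in WT only to 1. With equal numbers of top rows WT-only genes were 2, and with 500 bp upstream 3. In windows free of protein-coding starts 57 of 253 genes (22.5%) were called in every library, beside 27.9% of all MIR genes. Both the count and the share were therefore lower. The conserved minus young share was -1.2 percentage points with 500 bp upstream and 29.8 points with each family counted once; the second counts families, not genes. The cause of the other shifts was not tested. The mbd9-3 minus WT difference of median percentiles, 4.5 points, was -1.1 with 2 kb upstream and 1.6 in windows free of protein-coding starts. Leaving out each library gave 7 to 23 mbd9-3-only and 8 to 19 WT-only genes, since the rule then asks for fewer libraries; 92 to 97 genes in every library; a difference in mean count of -10 to 8 genes; a conserved minus young share of 1.7 to 4.7 points; a percentile difference of 1.9 to 7.1 points; and 0 to 1 limma calls, the 1 being without mbd9-3 replicate 2.

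The limma fit with the replicate number as a block called 0 genes, as did log2 of fold enrichment and ranks of −log10 p. Replicate numbers mark no shared batch in the labels, and the differences between replicates correlated at 0.122 across genes. With absent libraries at the lowest rank 395 genes were called, because a gene absent from both libraries of a genotype then has a fixed value there; among them were MIR426, MIR5026, MIR169c and MIR166f, with adjusted p-values of 0.0471 to 0.0491. On the log2 scale the median difference of all genes was -0.12 and that of MIR genes -0.02. Choosing members with at least 50% unique words, added after seeing the data, left 89 genes in every library and a conserved minus young share of 1.3 points. Depth limits the weak rows: at 2 libraries per genotype a missing row does not show a closed site.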

Other observations

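Sharing of rows touched 11 MIR genes, whose best row was also the best row of another MIR gene in at least 1 library. They were MIR400 with MIR5654, MIR859 with MIR774a and MIR774b, MIR5022 with MIR4227, MIR842 with MIR846, and MIR857 with MIR397b. Among the 36 intronic members 12 were called in all 4 libraries (33.3%), against 14 of the 53 exonic members (26.4%) and 65 of the 237 intergenic members (27.4%). Of the members on the same strand as their host gene 16 of 54 were called in all 4 libraries, and of those on the opposite strand 9 of 33.

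All 6 members of the family MIR8167 and all 5 of MIR854 had no summit in any library, beside 44.2% of all MIR genes. Fewer than 50% of the 50-base words were unique in the genome in all 5 MIR854 windows and in 3 of the 6 MIR8167 windows, and only reads placed once were kept; the part of this in the result was not tested.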
